A study of Mus musculus with 4 samples.

Results

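Genes of glycolysis and of the response to low oxygen were followed across 4 arrays of mouse embryonic stem cells. The members were the probe sets whose platform gene symbol is among 38 listed genes: 17 glycolytic enzymes, 4 kinases that set the rate of glycolysis or of pyruvate oxidation, 4 glucose and lactate carriers, and 13 hypoxia-induced genes. Of the 38, 34 had a probe set paired with that gene alone, out of 22180 such genes in the series. Aldoa and Ankrd37 had only probe sets shared with another gene, and Gpi1 and Eno1 had none paired with their symbols, so no value is given for these 4. Of the 34, 29 were past a filter on dim genes, which asks that a gene's mean over the 4 arrays reach 4.84 on the log2 scale, the median of all single-gene probe-set values. The 5 dim members were Pfkm, Ldhb, Pdk3, Egln1 and Ddit4. They are described but stand outside the counts unless stated.

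All cells were Prdm14 KO mouse embryonic stem cells (mESCs), so every group, the empty vector included, shares the knockout of this zinc finger regulator of naive pluripotent and germ cells. They carried mouse PRDM14, sea urchin PRDM14, both sea urchin PRDM14 and the co-repressor CBFA2T of sea urchin, or an empty vector. The medium was 2i + LIF, and the cells grew over STO feeders, a mouse fibroblast line whose RNA may be part of each sample. Each group had 1 array, and all 4 arrays belonged to strip 2, so no value has a replicate error, no test was possible and differences are given by size alone. The labels name neither the promoter of each transgene nor whether clones or pools of cells were used. The labelled cell type was checked with 12 stem cell markers, among them Pou5f1, Sox2 and Nanog, and all 12 were past the filter. This is a weak check, since 11316 of all 22180 genes were past it. So were 12 of 19 measured fibroblast markers, 8 of 15 primitive endoderm markers and 5 of 7 neural markers. Pearson's r between arrays across all probe sets lay between 0.986 and 0.989. The Prdm14 probe set read 5.57, 5.77 and 5.53 on the arrays labelled mouse PRDM14, sea urchin PRDM14 and sea urchin PRDM14 with CBFA2T, against 5.71 with the empty vector, so it does not check the labels, and a group name below means the array labelled with it.

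Glycolysis splits glucose into pyruvate, and lactate dehydrogenase turns pyruvate into lactate that leaves the cell through monocarboxylate carriers. Hypoxia-inducible factor, HIF, is a transcription factor that prolyl hydroxylases of the Egln family mark for destruction when oxygen is present. When oxygen is low it binds a short DNA core and raises many glycolytic enzymes, glucose carriers and stress genes. Mouse stem cells in the naive state use both glycolysis and respiration, and more primed cells lean more on glycolysis.

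The genes with the most marked low values on the array with CBFA2T are introduced by their promoters, searched for the core that HIF can bind, ACGTG or GCGTG. Differences are read by size, and a difference counts as past the threshold from 0.32 on the log2 scale, a linear ratio of 5 to 4. Shown are the genes lower by at least 0.32 with sea urchin PRDM14 and CBFA2T than with both sea urchin PRDM14 alone and the empty vector (Pgk1, Slc16a3, Egln3 and the dim Ddit4), and Bnip3, which had the largest difference between the sea urchin arrays. Each window holds 250 bases before and 50 after the start in RefSeq, build GRCm38.p6. It is written 5′ to 3′ on the gene's strand, with matches on either strand in capitals. The windows are chrX:106186850-106187149 on the plus strand for Pgk1, chr11:120948817-120949116 on the plus strand for Slc16a3, chr12:54203825-54204124 on the minus strand for Egln3, chr10:59951721-59952020 on the minus strand for Ddit4 and chr7:138909457-138909756 on the minus strand for Bnip3.
Pgk1: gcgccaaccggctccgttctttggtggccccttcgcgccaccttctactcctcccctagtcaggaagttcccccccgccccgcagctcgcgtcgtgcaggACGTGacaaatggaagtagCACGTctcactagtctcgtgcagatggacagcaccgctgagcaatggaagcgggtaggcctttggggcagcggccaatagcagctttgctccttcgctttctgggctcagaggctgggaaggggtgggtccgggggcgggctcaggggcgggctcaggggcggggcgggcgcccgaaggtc
Slc16a3: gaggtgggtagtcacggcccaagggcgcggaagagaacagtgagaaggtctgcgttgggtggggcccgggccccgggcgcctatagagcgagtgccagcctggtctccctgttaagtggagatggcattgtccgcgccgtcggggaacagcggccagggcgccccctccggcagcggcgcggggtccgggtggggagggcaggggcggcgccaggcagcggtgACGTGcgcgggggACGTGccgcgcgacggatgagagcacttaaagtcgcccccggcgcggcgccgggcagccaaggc
Egln3: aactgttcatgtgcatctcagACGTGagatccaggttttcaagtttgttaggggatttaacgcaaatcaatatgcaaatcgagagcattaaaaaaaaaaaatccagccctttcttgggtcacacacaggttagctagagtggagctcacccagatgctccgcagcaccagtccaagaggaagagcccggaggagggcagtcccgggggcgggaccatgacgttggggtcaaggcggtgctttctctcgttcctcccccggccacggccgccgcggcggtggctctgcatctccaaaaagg
Ddit4: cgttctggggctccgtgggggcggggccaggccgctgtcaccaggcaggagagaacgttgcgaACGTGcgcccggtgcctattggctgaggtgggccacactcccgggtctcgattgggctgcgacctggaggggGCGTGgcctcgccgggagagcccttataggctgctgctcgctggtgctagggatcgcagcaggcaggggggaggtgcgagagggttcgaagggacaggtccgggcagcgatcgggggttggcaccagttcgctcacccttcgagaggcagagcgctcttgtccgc
Bnip3: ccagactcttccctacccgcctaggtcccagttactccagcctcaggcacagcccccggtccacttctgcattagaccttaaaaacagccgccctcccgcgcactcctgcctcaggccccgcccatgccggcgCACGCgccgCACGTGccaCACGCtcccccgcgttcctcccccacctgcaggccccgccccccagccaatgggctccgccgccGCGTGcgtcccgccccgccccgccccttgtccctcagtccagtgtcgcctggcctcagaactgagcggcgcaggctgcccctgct

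With overlapping matches of a motif counted once, Pgk1 and Slc16a3 held ACGTG at 2 places each, Egln3 at 1, and Ddit4 held 1 ACGTG and 1 GCGTG. The Bnip3 window held 1 ACGTG, within the palindrome CACGTG, and 3 GCGTG. Of the 38 members, 36 were matched in the promoter table, with the first listed window taken for each gene. Slc2a3 and Ndrg1 were not. The 36 include dim members, and Gpi1, Eno1, Aldoa and Ankrd37, which have no value here. ACGTG lay in 21 of the 36 (58.3%), against 19.7% of the 27025 genes of the table and 25.04% of the 8759 genes of the table that were past the filter. GCGTG lay in 21 of the 36 as well (58.3%), against 32.5% of all genes and 47.9% of those past the filter. By role, ACGTG was in 9 of 12 windows of hypoxia-induced genes and in 7 of 17 of enzymes. Of measured members at least 0.32 lower with CBFA2T than with sea urchin PRDM14 alone, 6 of 7 held ACGTG and 4 held GCGTG. Of the other measured members with a window, 14 of 25 held ACGTG and 15 held GCGTG. The core was thus common among members without such low values too. The members were listed as glycolysis and hypoxia genes, and HIF raises many such genes. Their excess of the core is therefore no result of these arrays. A match is a run of letters and not a measured binding site, and no binding was measured here.

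The members differed by small folds across the 4 arrays, but more often reached 0.32 than genes in general. No member had its highest array 2-fold or more above its lowest, where 0.292% of all genes past the filter had. That share is too small to expect any among 29 genes. The highest array lay at least 0.32 above the lowest for 12 of the 29 members past the filter, against 15.7% of all 11316 genes past it. The median distance from lowest to highest was 0.24 on the log2 scale for the members and 0.19 for all genes. Pfkfb3 had the widest range (0.54) and Pfkfb4, its paralog, the narrowest (0.09).

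**Figure D1:**
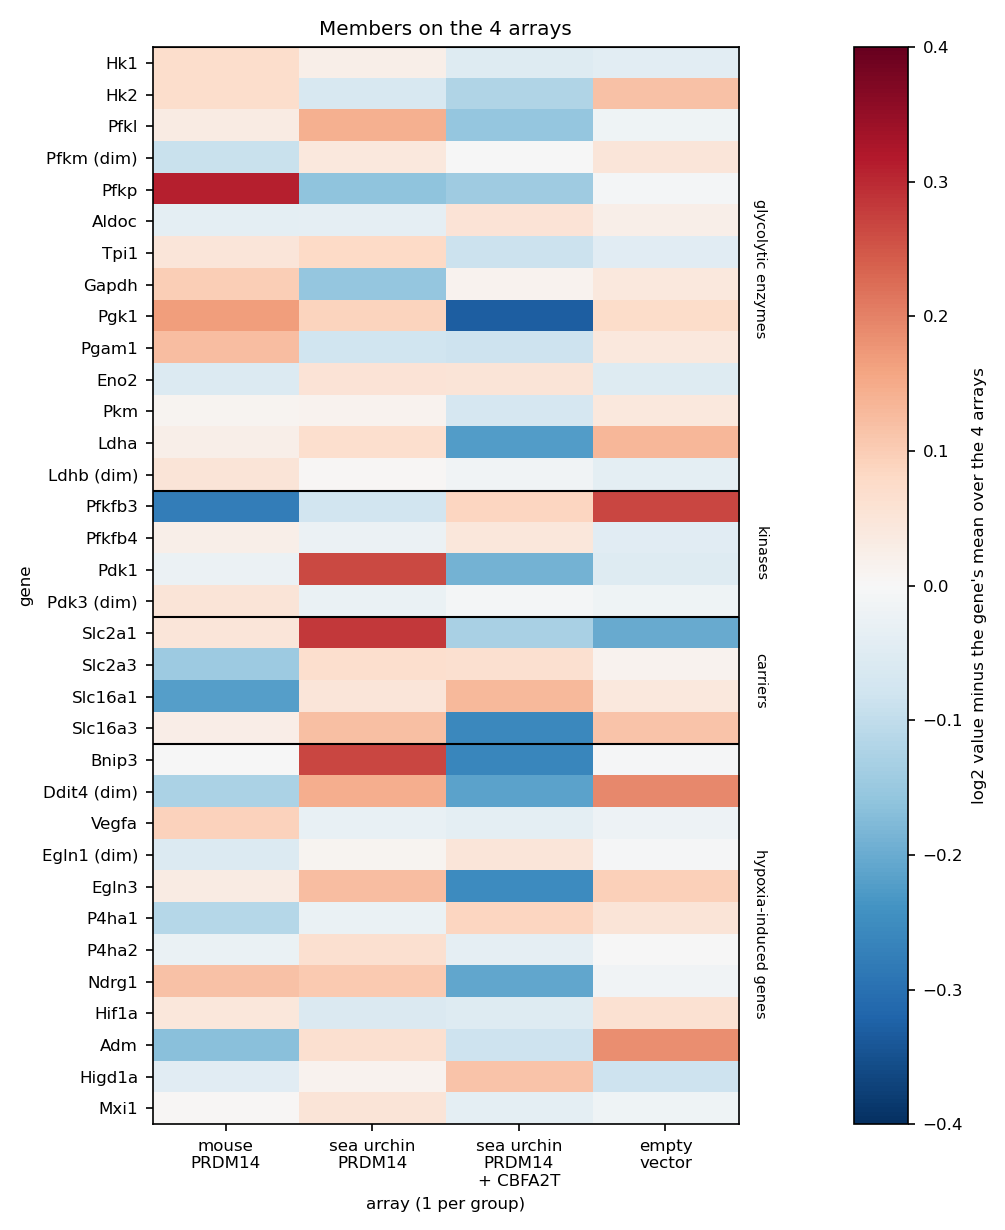
Heat map of the 34 measured members (rows, by role) on the 4 arrays (columns). Colour is the log2 value minus the gene's mean over the 4 arrays, and dim genes are marked. The column with CBFA2T holds the lowest values of Pgk1 (7.49), Slc16a3 (6.23), Egln3 (5.35) and Bnip3 (5.03).

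The array with sea urchin PRDM14 and CBFA2T held the lowest value of more members than any of the other arrays. It was lowest for 16 of the 29 members past the filter (55.2%), against 24.5% of all genes past the filter. The mouse PRDM14 array was lowest for 7 members (24.1%, against 28.0% of all genes), the sea urchin PRDM14 array for 3 (10.3%, against 22.1%) and the empty vector array for 3 (10.3%, against 25.4%). The 16 were 8 enzymes (Hk1, Hk2, Pfkl, Tpi1, Pgk1, Pgam1, Pkm and Ldha), the kinase Pdk1, the lactate carrier Slc16a3 and 6 hypoxia-induced genes (Bnip3, Vegfa, Egln3, P4ha2, Ndrg1 and Mxi1). For some of them the margin was small: Hk1 read 5.60 on this array and on the empty vector array, and Pgam1 read 7.85 on both sea urchin arrays. The highest value fell most often on the sea urchin PRDM14 array, for 11 of the 29 (37.9%, against 25.3% of all genes). It fell on the mouse PRDM14 array for 7 (23.3% of all genes), on the array with CBFA2T for 5 (27.1% of all genes) and on the empty vector array for 6 (24.3% of all genes).

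**Figure D2:**
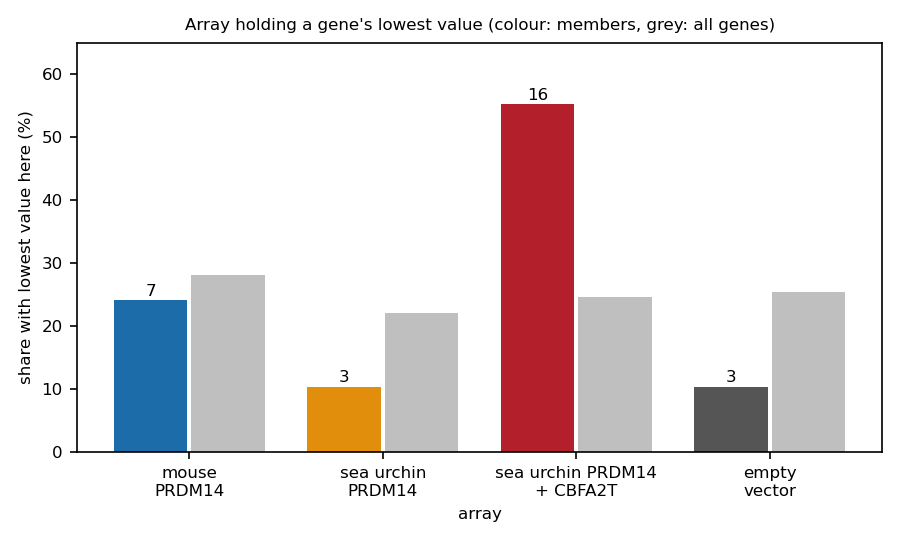
Bar chart of the share of genes (percent, y axis) whose lowest value of the 4 is on each array (x axis). Coloured bars are the 29 members past the filter, with their number above, and grey bars all 11316 genes past it; 16 members are lowest with CBFA2T.

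Adding CBFA2T to sea urchin PRDM14 went with lower values of several hypoxia-responsive members. Against sea urchin PRDM14 alone, 6 of the 29 were lower by at least 0.32, where 2.09% of all genes past the filter were: Bnip3, Pdk1, Pgk1, Slc2a1, Slc16a3 and Egln3. None was that much higher, where 1.67% of all genes were. The median difference of the 29 was -0.07, with 20 below 0, against a median of -0.001 over all genes, of which 50.4% were below 0. The dim Ddit4 was lower too (-0.36), and Ndrg1 (-0.315), Pfkl (-0.30) and Ldha (-0.29) lay just inside the threshold. The same array had 2-cell-like markers summing to 837 on the linear scale, against 163 with sea urchin PRDM14 alone, and fibroblast markers summing to 1008, against 1096. Fn1, the fibronectin gene, made up most of the gap between the fibroblast sums (157 with CBFA2T, against 233), and the other 18 fibroblast markers summed to 851 with CBFA2T and 863 with sea urchin PRDM14 alone. Among the stem cell markers Tdgf1 (-1.16) and Utf1 (-0.43) were lower and Nanog (0.52) was higher with CBFA2T than with sea urchin PRDM14 alone. Their part in the members' values was not tested, and in bulk RNA fewer cells of a type and less RNA per cell cannot be told apart.

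Against the empty vector, 4 of the 29 were lower by at least 0.32 with both urchin proteins, where 2.24% of all genes were: Pgk1, Slc16a3, Ldha and Egln3. None was that much higher, where 3.55% of all genes were. The median of the 29 was -0.11, with 21 below 0, against 0.005 over all genes, of which 48.3% were below 0. Among genes past the filter, 10 of 12 stem cell markers and 7 of 8 primitive endoderm markers were below 0 as well. The lean was thus not particular to the members, though only 9 of 20 further hypoxia-induced genes were below 0. The members' median was -0.046 over all 34 measured members and -0.042 with the mean of a gene's probe sets. Both differences use the same CBFA2T array, so they are not independent of each other. Pgk1, Slc16a3 and Egln3 were past the threshold in both, where 0.645% of all genes past the filter were.

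**Figure D3:**
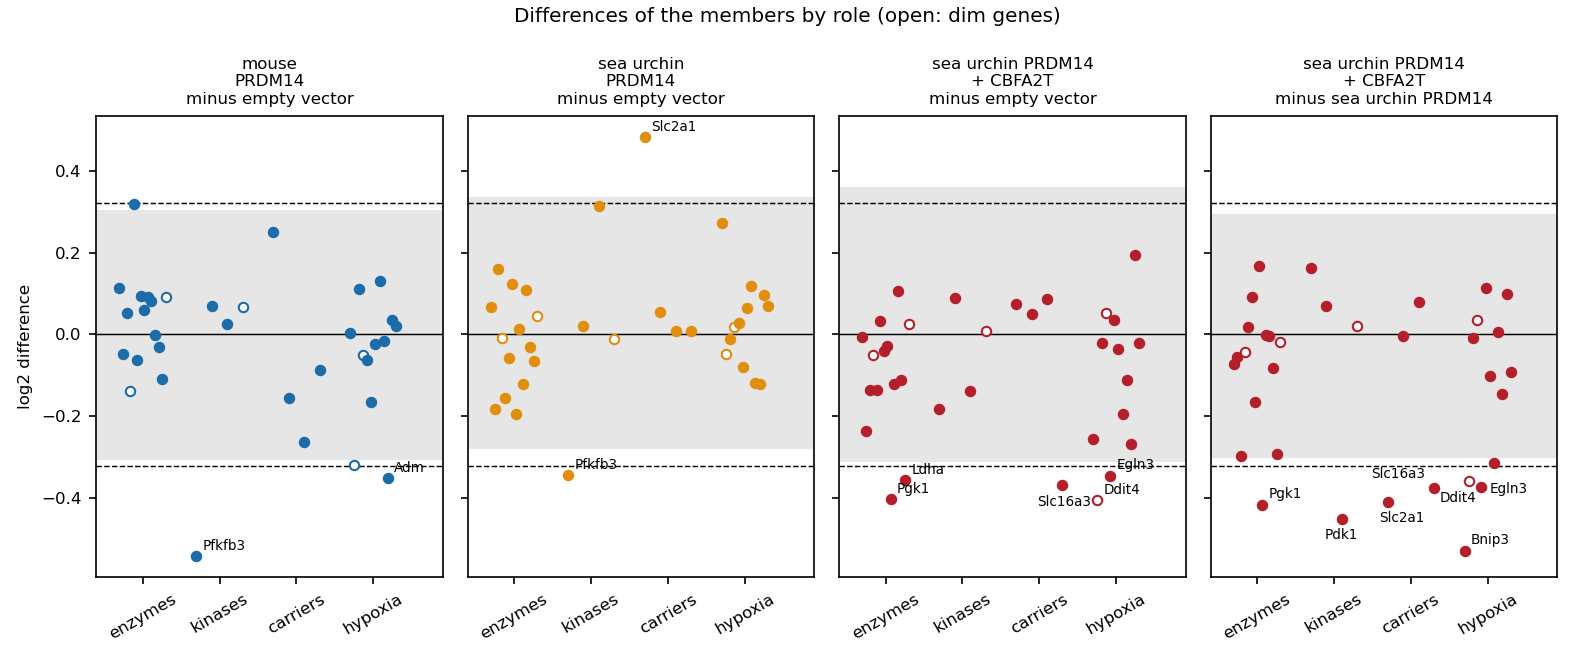
Log2 difference (y axis) of the 34 measured members by role (x axis) in the 4 main comparisons; each point is a gene, open points are dim genes. Grey bands hold the middle 95% of all genes past the filter, dashed lines mark 0.32 either way, and genes past them are named. With CBFA2T the named genes all lie below 0, down to -0.53 for Bnip3.

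Among the enzymes, Pgk1 and Ldha differed most on the CBFA2T array. Pgk1, the phosphoglycerate kinase that makes the first ATP of the pathway, read 7.98 with mouse PRDM14, 7.91 with sea urchin PRDM14 alone and 7.49 with both urchin proteins, against 7.89 with the empty vector. The CBFA2T array alone was low, 1.34-fold below sea urchin PRDM14 (-0.42) and 1.32-fold below the empty vector (-0.40). Pgk1 lies on chromosome X, whose 271 genes past the filter had medians of -0.002 and -0.001 in these comparisons.

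Ldha, the lactate dehydrogenase subunit that favours lactate, read 6.05 with mouse PRDM14, 6.10 with sea urchin PRDM14 alone and 5.80 with both urchin proteins, against 6.16 with the empty vector. It was 1.28-fold lower with CBFA2T than with the empty vector (-0.36). Its partner Ldhb, dim on all 4 arrays, lay between 4.73 and 4.82. Pfkl, the liver-type phosphofructokinase, read 6.17 and 6.28 with mouse and sea urchin PRDM14 and 5.99 with both urchin proteins, against 6.12 with the empty vector.

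Pfkp, the platelet-type phosphofructokinase, had another order, with 6.77 on the mouse PRDM14 array, 6.30 and 6.32 on the sea urchin arrays and 6.46 on the empty vector array. It was the enzyme with the highest value on the mouse PRDM14 array relative to the others, 0.319 above the empty vector and so just under the threshold. Cyclic loess between the arrays moved it just past 0.32.

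The other enzymes past the filter were closer together by their brightest probe sets. Hk2, the inducible hexokinase, differed by -0.24 with CBFA2T against the empty vector and Hk1 by -0.01. Pgam1, a phosphoglycerate mutase gene, differed by -0.12, but its dimmer probe set, which read 6.75 with CBFA2T and 7.09 with the empty vector, differed by -0.35, past the threshold, so its probe sets disagree. Tpi1 differed by -0.04 and Pkm, the pyruvate kinase gene, by -0.11. Aldoc (0.03) and Eno2 (0.11), the aldolase and enolase isoforms of neural tissue, lay above 0. Aldoc was still below the median of its chromosome 11 in this comparison (0.065). Gapdh read 10.85 with mouse PRDM14, 10.59 with sea urchin PRDM14 alone and 10.76 with both urchin proteins, against 10.79 with the empty vector. It has 3 probe sets of its own and 8 more shared with the related Gm12070 or Gapdh-ps15, so its values are uncertain. Over the 12 enzymes past the filter, 10 were below 0 with CBFA2T against the empty vector (48.3% of all genes). Against sea urchin PRDM14, 9 were (50.4% of all genes).

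Of the kinases, Pdk1 and Pfkfb3 differed most and in different arrays. Pdk1 switches off pyruvate dehydrogenase and so keeps pyruvate from the mitochondria. It read 5.34 with mouse PRDM14, 5.63 with sea urchin PRDM14 alone and 5.18 with both urchin proteins, against 5.31 with the empty vector. The sea urchin PRDM14 array was high and the CBFA2T array low, a difference of -0.45 (1.37-fold) between them, while each was within 0.32 of the empty vector. A different Pdk1 probe set read 2.49 to 2.57 on all arrays, too dim to show a difference.

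Pfkfb3 makes fructose 2,6-bisphosphate, the activator of phosphofructokinase. It read 4.999 with mouse PRDM14, 5.20 with sea urchin PRDM14 alone and 5.36 with both urchin proteins, against 5.54 with the empty vector. All 3 PRDM14 arrays lay below the empty vector array, by 0.54 (1.46-fold), 0.34 (1.27-fold) and 0.18, and these differences share that array. Pfkfb4 lay between 5.54 and 5.63, and the dim Pdk3 between 4.57 and 4.65.

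The carriers did not move together. Slc2a1 encodes the glucose carrier GLUT1. It read 7.80 with mouse PRDM14, 8.03 with sea urchin PRDM14 alone and 7.62 with both urchin proteins, against 7.55 with the empty vector. It was thus highest with sea urchin PRDM14 alone, 1.40-fold above the empty vector (0.48) and 1.33-fold above the array with CBFA2T (-0.41 for CBFA2T added minus alone). The dim Slc2a1 probe set read 4.18 to 4.31, and the mean of both took these differences to 0.25 and -0.18, within the threshold.

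Slc16a3, the lactate exporter MCT4, read 6.51 with mouse PRDM14, 6.61 with sea urchin PRDM14 alone and 6.23 with both urchin proteins, against 6.60 with the empty vector. Only the CBFA2T array was low, by 0.38 against sea urchin PRDM14 and by 0.37 against the empty vector (1.30-fold and 1.29-fold). Slc16a3 lies on chromosome 11, whose 1011 genes past the filter had medians of 0.014 and 0.065 in these comparisons. Slc16a1, the broadly used lactate carrier MCT1, read 6.38 with mouse PRDM14, 6.65 with sea urchin PRDM14 alone and 6.72 with both urchin proteins, against 6.64 with the empty vector, so its low array was mouse PRDM14. Slc2a3, the glucose carrier GLUT3, lay between 8.66 and 8.88 and was also lowest with mouse PRDM14.

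**Figure D4:**
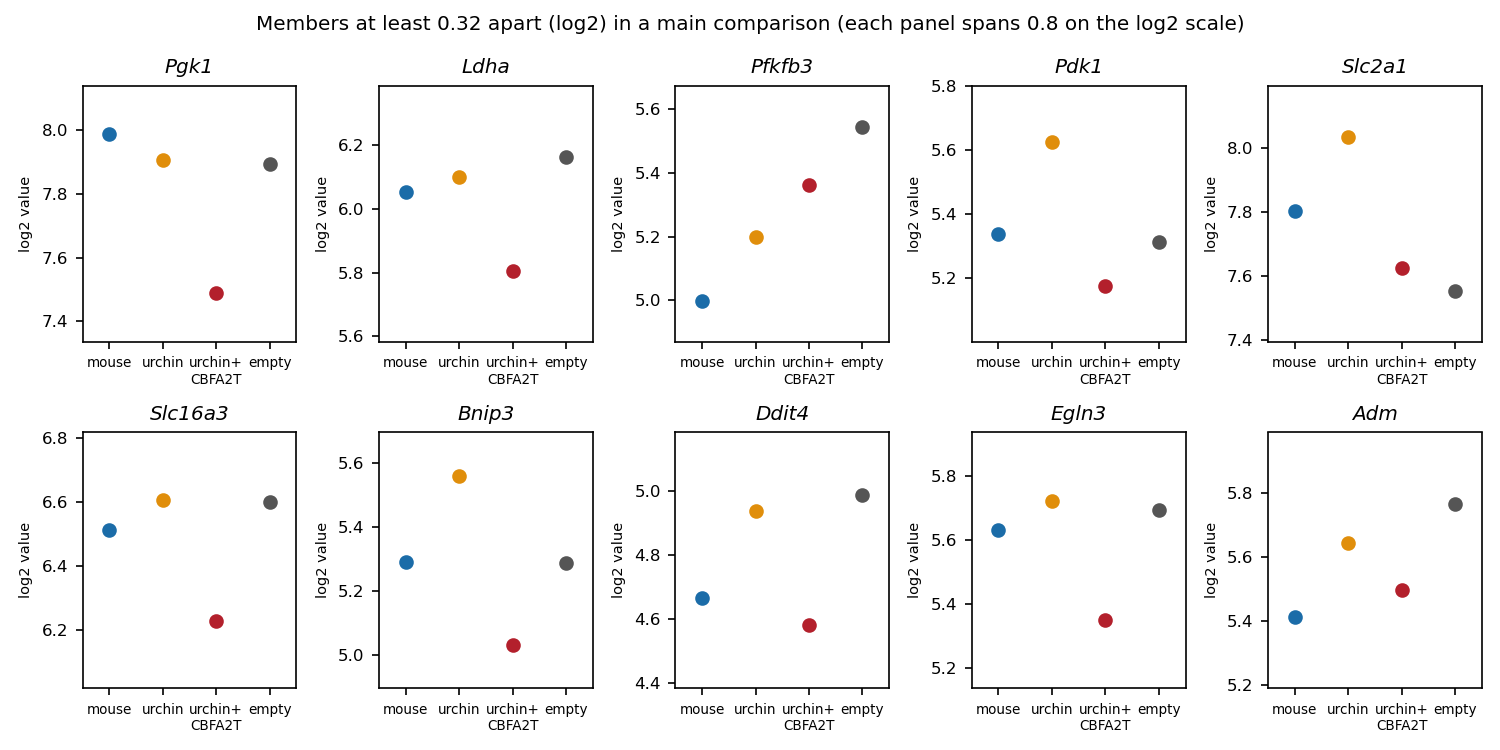
Log2 values (y axis, a truncated span of equal height in each panel) of the 10 members at least 0.32 apart in a main comparison, with 1 point per array (x axis). Pgk1, Ldha, Slc16a3 and Egln3 have 3 arrays close together and a low CBFA2T array, while Pfkfb3 and Adm are highest with the empty vector.

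Of the 10 hypoxia-induced genes past the filter, 7 were below 0 with CBFA2T against sea urchin PRDM14 alone (50.4% of all genes). Against the empty vector 8 were (48.3% of all genes). Only Bnip3 and Egln3 were past the threshold in either comparison, where 2.09% and 2.24% of all genes were that much lower. Bnip3, a receptor that marks mitochondria for removal, read 5.29 with mouse PRDM14, 5.56 with sea urchin PRDM14 alone and 5.03 with both urchin proteins, against 5.29 with the empty vector. It was 1.44-fold lower with CBFA2T than with sea urchin PRDM14 alone (-0.53), with 1 of these arrays high and the other low: the differences from the empty vector were 0.27 and -0.26. Egln3, a HIF prolyl hydroxylase that HIF itself induces, read 5.63 with mouse PRDM14, 5.72 with sea urchin PRDM14 alone and 5.35 with both urchin proteins, against 5.70 with the empty vector. It was 1.30-fold lower with CBFA2T than with sea urchin PRDM14 (-0.37) and 1.27-fold lower than with the empty vector (-0.35).

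Ddit4, an inhibitor of mTORC1 signalling, read 4.67 with mouse PRDM14, 4.94 with sea urchin PRDM14 alone and 4.58 with both urchin proteins, against 4.99 with the empty vector. Its differences with CBFA2T were -0.36 against sea urchin PRDM14 and -0.41 against the empty vector, but the gene was dim. Adm, the gene of the vessel-widening peptide adrenomedullin, read 5.41 with mouse PRDM14, 5.64 with sea urchin PRDM14 alone and 5.50 with both urchin proteins, against 5.77 with the empty vector. It was 1.28-fold lower with mouse PRDM14 than with the empty vector (-0.35). Ndrg1, a stress-induced gene, read 5.91 with mouse PRDM14, 5.90 with sea urchin PRDM14 alone and 5.58 with both urchin proteins, against 5.78 with the empty vector. Its dimmer probe set differed by 0.04 between the sea urchin arrays, so its probe sets disagree.

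The remaining hypoxia-induced members differed by less than 0.32 in every main comparison. Hif1a, the regulated HIF subunit, differed by -0.11 with CBFA2T against the empty vector and by 0.01 against sea urchin PRDM14. Vegfa, the vascular growth factor gene, lay between 5.60 and 5.74, and Egln1, the main HIF prolyl hydroxylase and dim here, between 4.55 and 4.65. Higd1a, a small mitochondrial protein gene, was highest with CBFA2T (5.40, against 5.20 with the empty vector). P4ha1, a collagen prolyl hydroxylase subunit, was highest there as well (5.52, against 5.48). Its paralog P4ha2 and the Myc antagonist Mxi1 lay within 0.10 and 0.09 over the 4 arrays, and the dimmer Mxi1 probe set differed in sign between the sea urchin arrays (0.14 against -0.09).

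Mouse PRDM14 itself was accompanied by few differences in these genes. Of the 29 members, 2 were lower by at least 0.32 than with the empty vector, Pfkfb3 and Adm, where 2.03% of all genes were, and none was that much higher, where 1.97% were. The median was 0.004, against -0.005 over all genes. With sea urchin PRDM14 alone, Slc2a1 was past the threshold upward (2.71% of all genes) and Pfkfb3 downward (1.44% of all genes), and the median was 0.01, the same as over all genes to 2 decimals.

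Set against mouse PRDM14, the array with sea urchin PRDM14 had a median of 0.05 over the 29 members, against 0.01 over all genes. It had 1 member past the threshold downward, Pfkp (-0.47, where 1.98% of all genes were), and none upward (2.97%). With CBFA2T added the median was -0.12, against 0.01 over all genes. Pgk1 (-0.50), Pfkp (-0.46) and Ndrg1 (-0.33, but -0.17 with the mean of its probe sets) were past the threshold below mouse PRDM14 (2.19% of all genes), and Pfkfb3 (0.36) and Slc16a1 (0.35) above it (3.23%).

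Further genes of the same pathways mostly had medians nearer 0 where CBFA2T was compared with sea urchin PRDM14 alone and the empty vector. This did not hold for mouse or sea urchin PRDM14 against the empty vector, where the members' medians were 0.004 and 0.013. Of 20 further hypoxia-induced genes past the filter, 2 were lower by at least 0.32 with CBFA2T than with sea urchin PRDM14 alone, Nampt (-0.49), an enzyme of NAD synthesis, and Bhlhe40 (-0.33), a clock-related repressor, where 2.09% of all genes were. Their median was 0.02 and 11 of the 20 were above 0. Against the empty vector Bhlhe40 (-0.51) and Plin2 (-0.73), a lipid droplet coat gene, were lower (2.24% of all genes), and the median was 0.04. Plin2 read 5.90 with mouse PRDM14, 5.71 with sea urchin PRDM14 alone and 5.84 with both urchin proteins, against 6.56 with the empty vector, so the empty vector array was the one that stood apart. In the comparison of mouse PRDM14 with the empty vector, Plin2 (-0.66) and Ppp1r3c (-0.33), a glycogen-targeting subunit gene, were lower (2.03% of all genes) and Selenbp1 (0.45) was higher (1.97%). Sea urchin PRDM14 alone had Plin2 (-0.86) lower (1.44%).

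Of 14 further glycolysis genes past the filter, 0 were past the threshold between the sea urchin arrays, where 3.76% of all genes were, either way. Their median was 0.05. Hkdc1, a hexokinase-like gene, was lower with CBFA2T than with the empty vector (-0.43, where 2.24% of all genes were). Slc16a8, a lactate carrier of retinal pigment epithelium, was lower with mouse PRDM14 (-0.40, 2.03% of all genes) and sea urchin PRDM14 (-0.38, 1.44%). It lay just inside the threshold with CBFA2T (-0.316), so the empty vector array stood apart for it. Of 9 oxygen-sensing genes, which include Vhl, Arnt and Epas1, none was past the threshold in any main comparison. Of all genes, 3.76% to 5.79% were, either way, in each. Cited2 came closest (-0.317 with sea urchin PRDM14). For pyruvate entry into mitochondria, 7 genes had a median of -0.16 between the sea urchin arrays, with none past the threshold (3.76% of all genes). Pdhb, a pyruvate dehydrogenase subunit, was lower with CBFA2T than with the empty vector (-0.36, where 2.24% of all genes were). It read 6.86 with mouse PRDM14, 6.87 with sea urchin PRDM14 alone and 6.81 with both urchin proteins, against 7.16 with the empty vector. The empty vector array thus stood apart for Pdhb too. In the pentose phosphate pathway, 1 of 4 genes was past the threshold in a main comparison, Pgd, with mouse PRDM14 (-0.41, where 2.03% of all genes were lower). Counts of 0 or 1 in lists this small are near these shares.

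**Figure D5:**
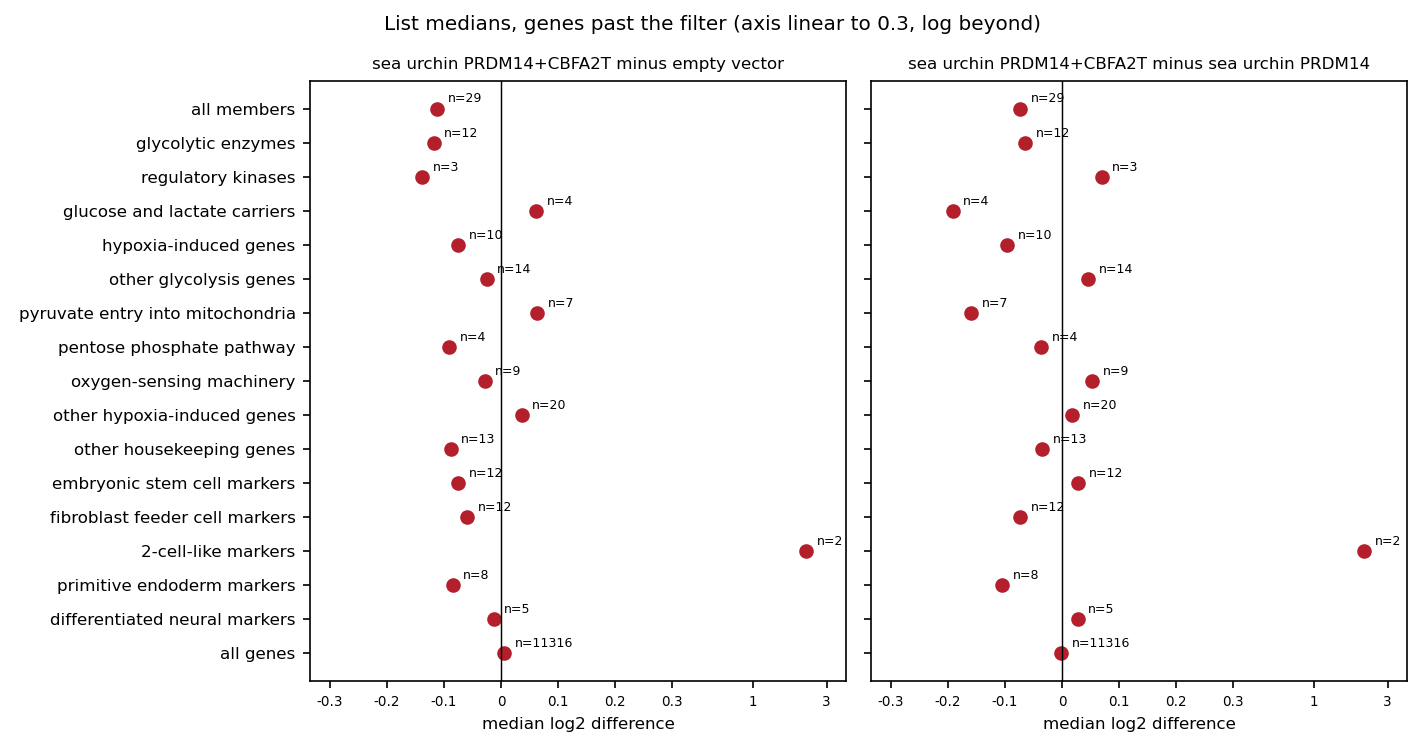
Median log2 difference (x axis, linear to 0.3 and logarithmic beyond) of each gene list (y axis) for sea urchin PRDM14 with CBFA2T against the empty vector (left) and against sea urchin PRDM14 alone (right), over genes past the filter, with their number. The members lie at -0.11 and -0.07, the further hypoxia-induced genes at 0.04 and 0.02. The 2-cell-like point rests on 2 genes. Zscan4d, 1 of them, passes the filter only through the CBFA2T array (6.72, against 4.39 to 4.62 on the others), so this point is partly set by the filter.

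Markers of other cells and states also differed on the CBFA2T array. Of the 11 measured 2-cell-like markers, 7 reached the filter value with CBFA2T and 1 on each of the other arrays, where their sums were 178 with mouse PRDM14 and 161 with the empty vector. Zscan4c read 7.27 with CBFA2T and 5.36 with sea urchin PRDM14 alone. The 19 measured fibroblast markers summed to 1008 with CBFA2T, against 1139.5 with mouse PRDM14, 1096 with sea urchin PRDM14 and 1094 with the empty vector, and 12 of the 19 were past the filter. Of these 12, 10 were below 0 between the sea urchin arrays (50.4% of all genes). Their median was -0.07, the same to 2 decimals as that of the 29 members. Over all 19 fibroblast markers the median was -0.03. The largest difference among them was in Fn1 (-0.57), and without it the sums were 851 with CBFA2T, against 866 with mouse PRDM14, 863 with sea urchin PRDM14 and 873 with the empty vector. The collagen genes Col1a1, Col1a2, Col3a1, Col5a1 and Col6a1 were past the filter, while 7 markers were dim, Lum and Dcn among them (2.76 to 3.64), and RMA values have no 0. The 12 stem cell markers summed to 1794 with CBFA2T, against 1968 with mouse PRDM14, 1857.5 with sea urchin PRDM14 and 1884 with the empty vector.

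Genes often used as references had small differences of their own. The 13 measured housekeeping genes without Gapdh and Pgk1 had a median of -0.09 with CBFA2T against the empty vector, close to the members' -0.11, and one of -0.03 against sea urchin PRDM14. None of the 13 was past the threshold in either comparison, where 5.79% and 3.76% of all genes were, either way. For a list of 13 this is near those shares. In the other main comparisons, Rplp0 was lower with mouse PRDM14 than with the empty vector (-0.41, where 2.03% of all genes were). Gusb was higher with sea urchin PRDM14 alone than with the empty vector (0.34, where 2.71% of all genes were). Primitive endoderm markers past the filter had medians of -0.08 and -0.10 over 8 genes, neural markers -0.01 and 0.03 over 5, and stem cell markers -0.07 and 0.03 over 12. Against the empty vector 7, 3 and 10 of them were below 0 (48.3% of all genes). Against sea urchin PRDM14 alone 7, 2 and 5 were (50.4%). The stem cell median hides larger differences, since Tdgf1 (-0.67) and Lin28a (-0.33) were past the threshold with CBFA2T against the empty vector as well.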

How the data were processed

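Total RNA was labelled with biotin and hybridised to GeneAtlas arrays, with 1 array for each of 4 groups. The authors deposited log2 values made with RMA, a tool named in the submitters' processing notes. This method corrects background, makes the arrays' distributions alike and summarises each probe set. A shift shared by most genes would therefore not show, and small folds are compressed. The sources used here name no RMA version and no set of arrays normalized together. Array medians were 4.54 to 4.55, and with so few arrays precision is limited by their number.

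Of 41345 probe sets, 23521 had 1 gene in the platform annotation, 1814 several and 16010 none. Entrez identifiers of 23328 of the 23521 were in the RefSeq table of GRCm38.p6. A gene's value was its probe set with the highest mean, and a gene passed the filter when its mean over the 4 arrays reached 4.84 (11316 of 22180 genes). Differences were read by size, from 0.32 on the log2 scale (a linear ratio of 5 to 4) and at 2-fold, with no test and no p-value. The members and lists were chosen with earlier results of these data known. Members past 0.32 in a main comparison were given on every array, and of each other list at most 4 genes past 0.32 in each. Ero1l was read as Ero1a, its current symbol. The alternatives were no filter, a filter at the 75th percentile (5.65), a filter on the highest array, cyclic loess, centring on housekeeping genes, the mean of a gene's probe sets, and thresholds of 1.2-fold and 1.5-fold. The summaries were tested on simulated data. The tools were R 4.3.3 with limma 3.58.1, and Python 3.11.15 with numpy 2.4.6, pandas 2.3.3 and matplotlib 3.10.9.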

Additional observations from a re-analysis of the deposited data

How the results depend on the processing

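No paired analysis was possible because each group has 1 array, and no array can be left out of a group. The 22 differences of 0.32 or more that the members showed in the 6 comparisons kept their sign under cyclic loess, housekeeping centring and the mean of a gene's probe sets. With the mean of probe sets, Pdk1 between the sea urchin arrays (-0.23), Slc2a1 in its comparisons (0.25 and -0.18) and Ndrg1 with CBFA2T against mouse PRDM14 (-0.17) came within 0.32, and with housekeeping centring Ndrg1 did too (-0.26). A median was called moved when it differed by at least 0.05 and a count when it differed by over 1.5 times. The median with CBFA2T against the empty vector was -0.046 with no filter (34 members) and -0.042 with the mean of probe sets. Centring on housekeeping genes shifted the median of all genes by -0.11 for mouse PRDM14 against the empty vector. The members' median became -0.10 there, with all genes at -0.11. In the same comparison of sea urchin PRDM14 the members' median became -0.066, with all genes at -0.072. With CBFA2T against mouse PRDM14 the members' median became -0.057, with all genes at 0.074. Such centring shifts every gene of an array alike, so members and all genes moved together. The stricter filter kept 17 members: 0 were lower with mouse (2.07% of all genes) or sea urchin PRDM14 (1.39%) against the empty vector, 3 were lower with CBFA2T against sea urchin PRDM14 (2.42%), and against mouse PRDM14 1 was higher (4.14%) and the median was -0.18. Cyclic loess put 1 member higher with mouse PRDM14 (2.12% of all genes), and the mean of probe sets put 0 higher with sea urchin PRDM14 (2.57%). At 1.5-fold, 0 members were called in any of the 6 comparisons, where only 0.133% to 0.451% of all genes were in each direction. At 1.2-fold, 1 was higher with mouse PRDM14 (3.79% of all genes) and 3 with sea urchin PRDM14 (4.9%) against the empty vector. Against mouse PRDM14, 3 were higher with sea urchin PRDM14 (5.52%) and 5 lower with CBFA2T (3.95%). All of these differences are small, rest on single arrays and have no replicate error.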
